A study of Drosophila melanogaster with 11 samples.

Results

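Heads of female flies that ate paraquat and nicotine together were compared with heads of flies on plain food. The comparison rests on 6 of the 11 arrays of the series, 3 for the joint exposure and 3 for the control, taken by the exposure written on each label. Affymetrix control probe sets were dropped, as were probe sets that reached log2 4 on fewer than 2 of the 11 arrays. Of 18952 probe sets, 9104 remained and were tested. They named 7316 genes, and all change values below are joint exposure minus control on the log2 scale unless said otherwise.

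All flies were adult females of the w1118 genotype, a white-eyed laboratory strain, collected within a day of emergence. Control flies ate plain food for 16 days. Joint-exposure flies spent the first 10 days on nicotine at 0.1 mg/ml and the last 6 days on the same nicotine together with paraquat at 5 mM. The other groups ate the same paraquat without nicotine (n = 2 arrays) or the same nicotine without paraquat (n = 3 arrays). Each array holds the pooled heads of 20 females, so no value belongs to a single fly. The replicates are labelled as biological, but no source says whether they came from separate cultures or days, so the p-values measure the spread between these pools.

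Paraquat is a herbicide that takes electrons from cellular enzymes and passes them to oxygen, which makes superoxide. Nicotine acts on acetylcholine receptors of insect neurons and is itself a plant toxin. Insects clear such compounds in steps: cytochrome P450 enzymes, aldehyde oxidases and reductases alter the molecule, glutathione S-transferases and sugar or phosphate transferases attach a water-soluble group, and transporters export the product. Reactive oxygen can also break DNA strands, which are repaired by end-joining proteins such as the Ku proteins or by copying an intact strand.

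The arrays of both groups carried the head markers that were measured. The summed level of 3 photoreceptor markers lay between log2 16.43 and 16.55 in control arrays and between 16.23 and 16.40 in joint arrays, and 4 neuron markers between 12.39 and 13.40 and between 11.86 and 12.37. Some arrays stood apart. Joint replicate 1 had the lowest mean correlation with the other arrays, 0.977 against 0.985 to 0.991, and it lay opposite control replicate 3 on a first principal component that held 35.1% of the variance. A measure of RNA wear, the 3′ signal minus the mid-transcript signal of 7 pairs of control probe sets, was 3.56, 2.96 and 2.08 log2 in control replicates 1 to 3 and 4.67, 3.11 and 4.22 in joint replicates 1 to 3. The joint arrays were therefore mostly higher on it, and results with this measure as a covariate are given beside the main counts. Digestive tract and ovary transcripts also differed between arrays and are described with the genes they concern.

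A limma model across all 11 arrays called 30 of 9104 probe sets (0.33%) at an adjusted p below 0.05, with adjustment over all tested probe sets. Most were rises, and they included genes of cytochrome P450s, glutathione S-transferases, an aldehyde oxidase, aldo-keto reductases and kinase-like enzymes. Of the 30, 27 (0.297%) were higher under joint exposure with a median of 2.57, and 3 (0.033%) were lower with a median of -1.84. The called probe sets named 27 genes, while 3 probe sets named none, and each of the 30 changed at least 2-fold in the fitted value with no overlap between the groups. An unadjusted p below 0.05 was reached by 1501 probe sets, 732 higher and 769 lower; the median change of all tested probe sets was -0.01.

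The count of calls depended on single arrays. It was 11, 5 and 7 without control replicates 1, 2 and 3, and 11, 381 and 66 without joint replicates 1, 2 and 3. Without nicotine replicate 1, which enters only the shared estimate of spread, it was 14. Of the 30 probe sets, 6 stayed called without joint replicate 1. The adjusted p of the others then lay between 0.0513 and 0.102, and all 30 kept their sign. With the RNA wear covariate 3 stayed called and all 30 kept their sign. Cyp6d2, CG31288, CG16898, CG31296 and AOX1 were called in each of the 11 fits that left out 1 array.

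**Figure D1:**
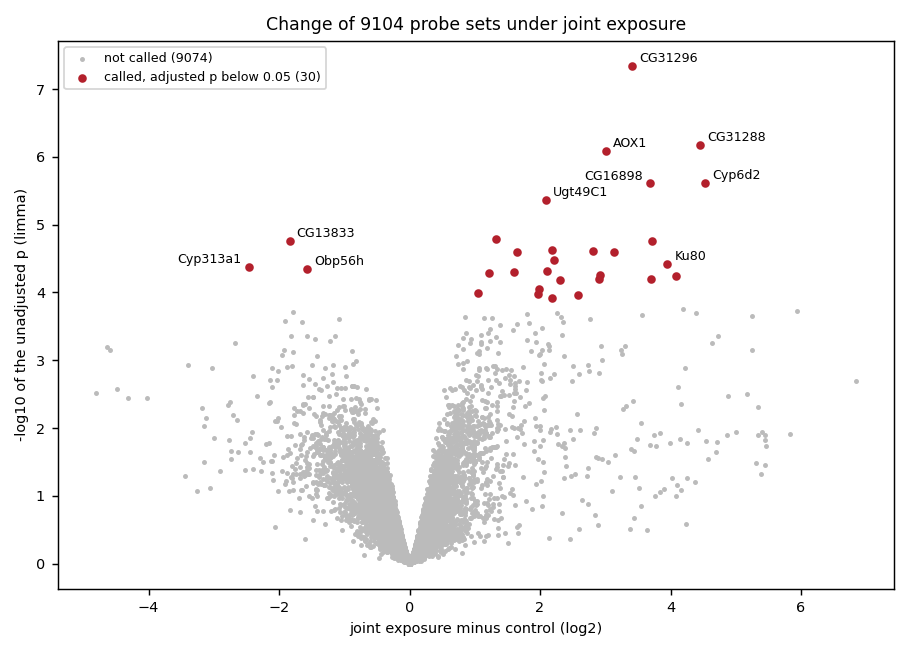
Each point is 1 of 9104 probe sets, with the change of joint exposure minus control (log2) on the horizontal axis and -log10 of the unadjusted limma p on the vertical axis. The 30 called probe sets are red. The 27 rises lie to the right, led in significance by CG31296 and in size by Cyp6d2, and the 3 falls lie to the left, while many large changes on the right have larger p-values and were not called.

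Cytochrome P450 enzymes gave both the largest called rise and the largest called fall. Cyp6d2 read 9.19, 7.97 and 8.44 in the control arrays and 12.97, 12.41 and 13.81 in the joint arrays. All joint arrays lay above all controls, and the highest value was in joint replicate 3. Cyp6d2 rose by 4.53 ± 0.45 (SE from the fit), or 23.2-fold (limma adjusted p = 0.00446). Cyp309a1, another enzyme of the family, read 9.99, 10.51 and 9.41 in controls and 12.42, 13.25 and 12.98 under joint exposure. Its rise of 2.91 ± 0.42 was 7.53-fold (limma adjusted p = 0.0235), and the groups did not overlap. Cyp313a1 went the other way, from 11.87, 11.96 and 12.04 to 8.87, 10.23 and 9.36. It fell by 2.47 ± 0.35 on the log2 scale, 5.53-fold lower (limma adjusted p = 0.0231), and the joint arrays were more spread out than the closely grouped controls.

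Across the 60 measured genes of the P450 list there was no common direction. The list was filled by symbol and also took in the cyclophilin genes Cyp1 (-0.94) and Cyp40 (-0.06), which are not P450s. Both count among those below 0, with overlapping groups. The median change was -0.01, with 29 above 0 and 31 below it, next to a median of 0.00 over all 7316 genes. Counted with 1 probe set per gene, 2 were called higher and 1 lower, where 0.314% of all genes were called higher and 0.041% lower. In 11 of the 60 (18.3%) every joint array lay above every control, and in 5 (8.33%) every joint array lay below. The same held for 9.84% and 10.5% of all genes. Among those not called, Cyp12c1 differed by 1.80 ± 0.35 (adjusted p = 0.0673), Cyp4ae1 by 1.60 ± 0.40 (0.131) and Cyp9b1 by 1.06 ± 0.24 (0.0945). On the lower side Cyp6a2 and Cyp6g1, both known from insecticide resistance, differed by -0.98 ± 0.32 (adjusted p = 0.205) and -0.66 ± 0.16 (0.122).

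Enzymes that attach glutathione or sugar rose in a few members. GstD3 read 8.44, 8.42 and 7.87 in controls and 10.59, 10.00 and 10.78 under joint exposure, and it rose by 2.22 ± 0.30, or 4.65-fold (limma adjusted p = 0.0215). GstE7 went from 9.81, 9.83 and 9.43 to 11.37, 11.93 and 11.70, a rise of 1.98 ± 0.30, or 3.94-fold (limma adjusted p = 0.0311). Neither gene had overlapping groups. For GstE9 the called probe set read 7.61, 7.12 and 5.41 in controls and 10.50, 10.00 and 10.72 under joint exposure, a rise of 3.69 ± 0.55 (limma adjusted p = 0.0235). Its second probe set differed by only 0.45 ± 0.26 (adjusted p = 0.411), so the measurements of GstE9 disagreed, and it was the only called gene with more than 1 tested probe set. The genes of this family are close copies of each other, and array probes can pick up a neighbour's transcript.

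The 30 measured glutathione S-transferase genes, with GstE9 counted by its brighter probe set, had a median change of 0.26, with 18 above 0. Of these, 2 were called higher and none lower, 5 (16.7%) lay wholly above the controls and 1 (3.33%) wholly below, beside 9.84% and 10.5% of all genes. GstD2 differed by 2.50 ± 0.84, with overlapping groups since control replicate 2 read 11.32 and the lowest joint array 11.16 (adjusted p = 0.208). GstD1, the abundant family member, read 13.60, 13.77 and 14.06 in controls and 13.88, 14.56 and 14.58 under joint exposure, a difference of 0.53 ± 0.23 that did not pass the test (adjusted p = 0.293). Among 16 UDP-glycosyltransferases, which attach sugars, the median was 0.10 and 1 was called. Ugt49C1 went from 9.93, 9.66 and 9.71 to 11.80, 11.57 and 12.20, a rise of 2.09 ± 0.22, or 4.25-fold (limma adjusted p = 0.00648). The groups were far apart relative to their spread, and the call was lost in 1 of the 11 fits that left out an array.

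Aldehyde and carbonyl enzymes gave several of the calls. AOX1, an aldehyde oxidase, read 10.41, 10.10 and 10.94 in controls and 13.18, 13.83 and 13.45 under joint exposure. It rose by 3.01 ± 0.27, or 8.04-fold (limma adjusted p = 0.00248). The gene mal, whose product puts the sulfur into the molybdenum cofactor that aldehyde oxidases need, went from 6.18, 6.30 and 5.64 to 9.75, 8.24 and 9.54, a rise of 3.14 ± 0.41, or 8.81-fold (limma adjusted p = 0.0176). In neither gene did the groups overlap. Xanthine dehydrogenase (ry), which uses the same cofactor, differed by 0.77 ± 0.27 without passing the test (adjusted p = 0.213), and the related oxidase AOX3 by -0.50 ± 0.22 (0.305).

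Some reductases of the aldo-keto family rose and others did not pass the test. CG12766 read 9.03, 8.82 and 7.76 in controls and 13.27, 11.94 and 12.66 under joint exposure, a rise of 4.08 ± 0.60, or 17.0-fold (limma adjusted p = 0.0235). CG12224 went from 4.69, 4.37 and 4.17 to 8.67, 7.04 and 8.69, a rise of 3.72 ± 0.47, or 13.2-fold (limma adjusted p = 0.0176), and joint replicate 2 was its lowest joint array. CG3397 rose by 2.18 ± 0.29 (limma adjusted p = 0.0176), from 7.29, 7.27 and 6.67 to 9.24, 8.90 and 9.64. The carbonyl reductase sni differed by 0.91 ± 0.22 (adjusted p = 0.112) and CG18547 by 1.35 ± 0.28 (0.0732). The aldo-keto genes CG10863, CG6083 and CG9436 differed by -0.15 ± 0.17 (adjusted p = 0.677), -0.18 ± 0.24 (0.731) and -0.56 ± 0.40 (0.507), with overlapping groups. A list of 10 measured aldehyde oxidase and reductase genes, which does not hold CG12224 and CG3397, had a median of 0.31, or 0.55 with the RNA wear covariate. Of the 10, AOX1 and CG12766 were called higher, and 5 (50.0%) lay wholly above the controls, where 9.84% of all genes did.

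Genes of the ecdysteroid kinase-like family, enzymes thought to add phosphate to steroids and to foreign compounds, included 3 of the calls. CG31288 read 5.56, 5.40 and 5.48 in controls and 10.24, 9.19 and 10.38 under joint exposure. It rose by 4.45 ± 0.38, or 21.9-fold (limma adjusted p = 0.00248). CG16898 was already high at 10.61, 11.32 and 10.72 and reached 14.28, 14.60 and 14.85, a rise of 3.69 ± 0.37, or 12.9-fold (limma adjusted p = 0.00446). The joint arrays of CG16898 were closer to each other than the controls were. CG13659 went from 5.24, 4.91 and 4.07 to 7.11, 7.37 and 8.46, a rise of 2.91 ± 0.43, or 7.51-fold (limma adjusted p = 0.0235). Of 35 measured family genes 21 differed upward and 14 downward with a median of 0.21, which became -0.01 with the RNA wear covariate. The 3 called stand beside 0.314% of all genes called higher. In 10 (28.6%) the joint arrays lay wholly above the controls and in 2 (5.71%) wholly below, beside 9.84% and 10.5% of all genes.

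CG31104 of the same family had a larger difference than any called gene and missed the threshold. It read 4.88, 3.22 and 4.11 in controls and 12.24, 9.94 and 7.87 under joint exposure, a difference of 5.95 ± 1.01 (adjusted p = 0.0508). The joint arrays were widely spread, and joint replicate 3 was the lowest of them. The digestive tract transcripts described further on were lowest in that array too, and their part in the CG31104 value was not tested. The 8 uncalled probe sets with the smallest p-values had an adjusted p of 0.0508, among them the large subunit of ribonucleotide reductase (RnrL) and the nuclear lamina gene Ote.

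**Figure D2:**
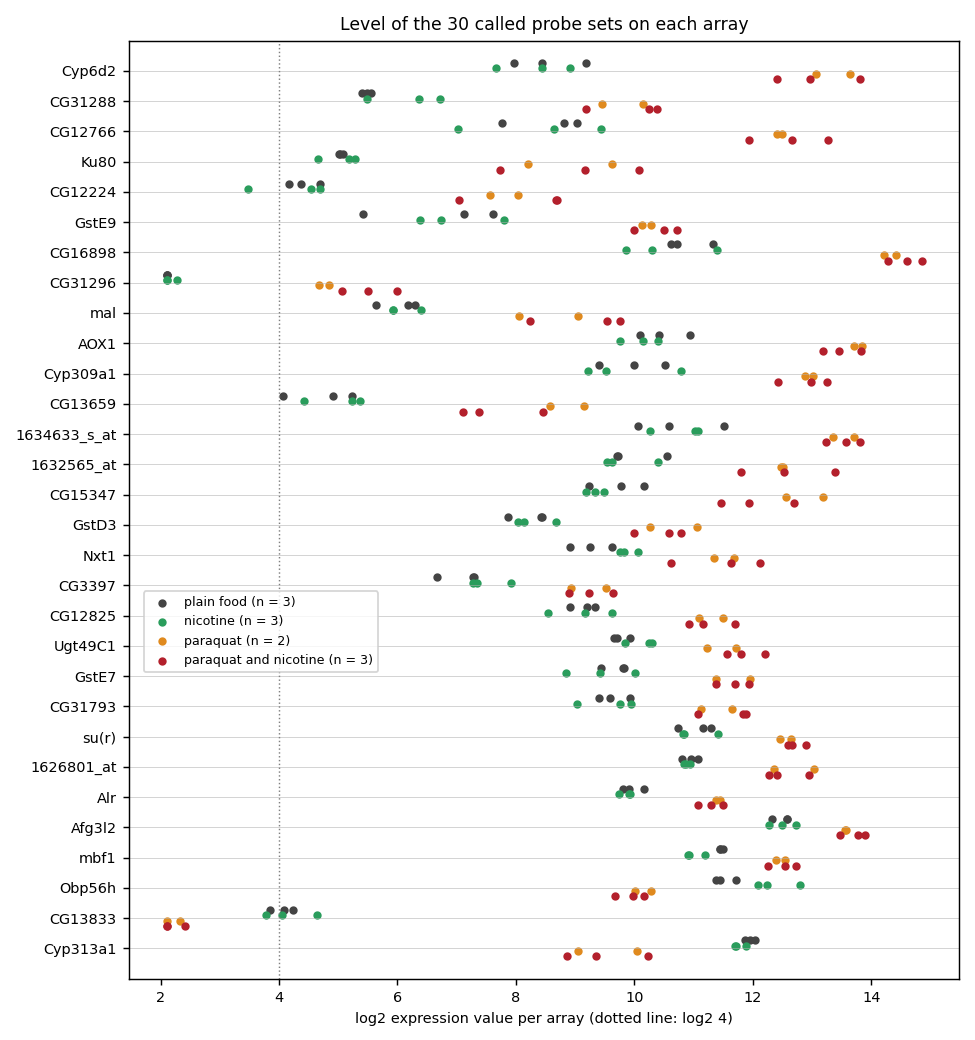
The deposited log2 value of each of the 30 called probe sets is shown for every array, with control arrays in black, nicotine in green, paraquat in orange and the joint exposure in red, and a dotted line at log2 4. In every row the 3 joint arrays lie on one side of the 3 control arrays, and CG31296 in controls and CG13833 under joint exposure lie below the dotted line.

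Ku80, which binds broken DNA ends, was the called member of the DNA repair genes. It read 5.01, 5.03 and 5.08 in controls and 9.16, 7.73 and 10.08 under joint exposure, a rise of 3.95 ± 0.55, or 15.4-fold (limma adjusted p = 0.023). The controls were nearly identical, and the joint arrays spread over more than 2 log2 units, highest in joint replicate 3. With paraquat and no nicotine Ku80 read 8.21 and 9.63. Its partner Irbp went from 8.40, 7.47 and 7.49 to 9.63, 9.38 and 10.76, a difference of 2.14 ± 0.43 that did not pass the test (adjusted p = 0.069). The nucleotide-making RnrL read 7.39, 5.64 and 5.52 in controls and 10.66, 8.95 and 11.51 under joint exposure, 4.19 ± 0.70 higher (adjusted p = 0.0508). PolZ1, the polymerase that copies past damaged bases, differed by 2.32 ± 0.40 (adjusted p = 0.0508). In each of these 4 genes the groups did not overlap, and the lowest joint value was that of replicate 2.

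The list for DNA break repair and nucleotide supply also held the excision repair genes Xpc, Xpd, mei-9 and Ercc1, and PCNA. Of its 19 measured genes, 18 differed upward and 1, the checkpoint kinase gene grp, differed by -0.16 ± 0.21. Only Ku80 was called. In 14 of the 19 (73.7%) all joint arrays lay above all controls, where 9.84% of all genes did. The median difference was 1.02, and it was 0.94 with the RNA wear covariate and 1.07 without joint replicate 1. For paraquat without nicotine the list median was 1.18, and for nicotine added to paraquat it was -0.10. The median of the list on each array, relative to the control mean, was 0.08, -0.03 and -0.04 in controls and 1.0, 0.49 and 1.64 in joint replicates 1 to 3. End joining members included the ligase DNAlig4 (2.06 ± 0.45, adjusted p = 0.0925). For the break-sensing complex, rad50 differed by 2.0 ± 0.41 (adjusted p = 0.0757), nbs by 1.01 ± 0.33 (0.201) and mre11 by 0.84 ± 0.29 (0.212). The damage-responsive transcription factor p53 differed by 0.57 ± 0.29 (0.352). These lists were drawn up with earlier results of the same arrays known, so their counts are descriptions.

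The remaining called rises covered mitochondrial, nucleotide-breakdown, transport and regulatory proteins and genes known by number only. Alr, a sulfhydryl oxidase of the mitochondrial intermembrane space, went from 10.17, 9.91 and 9.81 to 11.30, 11.08 and 11.49, and rose by 1.33 ± 0.17 (limma adjusted p = 0.0176). Afg3l2, a subunit of a protease of the mitochondrial inner membrane, rose by 1.22 ± 0.18 from 12.57, 12.57 and 12.32 (limma adjusted p = 0.0231). The pyrimidine-degrading enzyme su(r) rose by 1.65 ± 0.22 (limma adjusted p = 0.0176) and the transcriptional coactivator mbf1 by 1.05 ± 0.16 (0.0339). These changes were smaller than those of the enzymes above, with closely grouped replicates on both sides. The ABC transporter gene CG31793 rose by 1.97 ± 0.31 (adjusted p = 0.0339) and the RNA export factor Nxt1 by 2.19 ± 0.35 (0.0364). CG15347 rose by 2.31 ± 0.34 (adjusted p = 0.0235) and CG12825 by 2.11 ± 0.30 (0.0231). The 3 called probe sets that name no gene rose by 2.82, 2.57 and 1.60.

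CG31296 had the smallest p-value. Its control arrays all read 2.11, the lowest value of the table, and its joint arrays read 5.07, 5.50 and 6.00. The fitted difference was 3.41 ± 0.22 (limma adjusted p = 0.00041), but with all controls below log2 4 only a bound can be given, at least 2.87-fold higher with control values set to log2 4. Values at the bottom of the scale show no spread between replicates, which enters the standard error of CG31296. The gene reached log2 4 only on paraquat and joint arrays and so passed the filter through them. Its upward direction was thereby fixed in advance and is no evidence of a rise.

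Obp56h and CG13833 were the other called falls. Obp56h, an odorant-binding protein gene, went from 11.44, 11.72 and 11.38 to 9.97, 9.67 and 10.17, and fell by 1.58 ± 0.22 on the log2 scale, 2.98-fold lower (limma adjusted p = 0.0231). Both groups were tight and did not overlap. In pooled heads, fewer cells of a type and less RNA per cell cannot be told apart. CG13833 read 3.85, 4.08 and 4.24 in controls and 2.11, 2.42 and 2.11 under joint exposure, close to or under log2 4 throughout. Its fall of 1.84 ± 0.23 on the log2 scale passed the test (limma adjusted p = 0.0176), and as a bound it was at least 1.08-fold lower. CG13833 reached log2 4 only on control and nicotine arrays and passed the filter through them, which fixed its downward direction in advance.

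The question of what nicotine added to paraquat was addressed by the joint arrays minus the 2 paraquat arrays. In that contrast limma called 0 of 9104 probe sets (0%), with 275 at an unadjusted p below 0.05 and a smallest adjusted p of 0.962. The interaction, which asks whether the joint change differs from the sum of the single-exposure changes, gave 0 calls as well (0%), with 112 at an unadjusted p below 0.05. Without joint replicate 3 these counts were 32 and 21. Without joint replicate 1 they were 1 and 1, Peritrophin-15b in each. Without nicotine replicate 2 the interaction gave 2. The 5 smallest unadjusted interaction p-values, between 0.00213 and 0.00558, belonged to tkv (-1.45 ± 0.35), CG31125 (-1.08 ± 0.28), CG15629 (-1.89 ± 0.52), Utx (0.84 ± 0.23) and Obp56f (-1.48 ± 0.41), all with a limma adjusted p of 1. The receptor gene tkv, for example, read 4.41 and 4.92 with paraquat, 3.27, 3.23 and 3.38 with both, and 3.32, 2.87 and 3.29 in controls, so only the paraquat arrays exceeded log2 4. It passed the filter through those 2 arrays, so its joint values could only lie below the paraquat values. Its negative interaction value is therefore no evidence of an interaction.

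Against the same control arrays, limma called 31 probe sets (0.341%) for paraquat and 0 (0%) for nicotine, where 179 had an unadjusted p below 0.05. These comparisons share the control arrays, so the values of the called genes are set side by side without a measure of likeness. Cyp6d2 read 13.06 and 13.64 with paraquat and 8.44, 8.92 and 7.66 with nicotine, which gives 4.82 ± 0.51 for paraquat and -0.19 ± 0.45 for nicotine beside 4.53 for both. CG31288 read 9.45 and 10.15 with paraquat and 5.49, 6.36 and 6.71 with nicotine. AOX1 read 13.70 and 13.84, and 10.14, 10.40 and 9.76. In all 3 genes the paraquat arrays lay near the joint arrays. The nicotine arrays lay near the controls for Cyp6d2 and AOX1. For CG31288, nicotine replicates 2 and 3 lay above all controls, and nicotine minus control was 0.71 ± 0.38 (limma unadjusted p = 0.0976). Cyp313a1 showed the same order downward, with 10.04 and 9.04 for paraquat and 11.71, 11.70 and 11.89 for nicotine.

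The difference between joint exposure and paraquat lay between -1.22 and 0.76 over the 30 called probe sets, which had been chosen partly by the same joint arrays. Its 95% interval was -1.43 to 0.85 for Cyp6d2, -0.83 to 1.10 for CG31288, -1.30 to 1.44 for Ku80 and -0.95 to 0.39 for AOX1. The half-width over the 30 ran from 0.41 to 1.5, so a change of about 2-fold between the exposures could not be seen for many of them. CG31296 had the smallest p of the set, 4.67 and 4.85 with paraquat against 5.07, 5.50 and 6.00 with both, a difference of 0.76 with an interval of 0.21 to 1.31 (unadjusted p = 0.0116, limma adjusted p = 0.962). CG13659 lay lower with both exposures than with paraquat, by -1.22 with an interval of -2.30 to -0.14 (unadjusted p = 0.0305). For CG15347 the difference was -0.84 (unadjusted p = 0.0552). Nicotine minus control for the 30 ran from -0.45 for mbf1 to 0.86 for Obp56h, with a limma adjusted p of 1. Obp56h thus read 12.24, 12.09 and 12.79 with nicotine, above all controls, and 9.97, 9.67 and 10.17 with both.

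**Figure D3:**
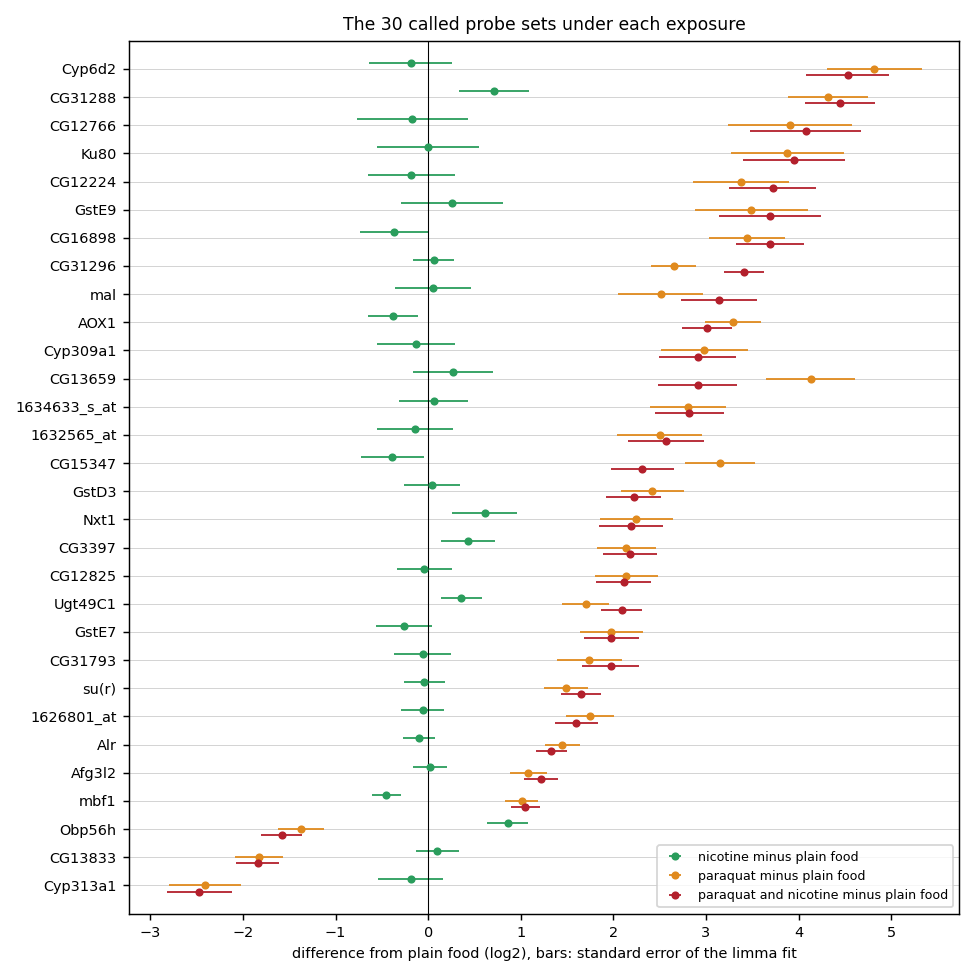
For each of the 30 called probe sets the points give nicotine (green), paraquat (orange) and joint exposure (red) minus the shared plain-food controls in log2, with bars for the standard error of the limma fit. Green points lie between -0.45 and 0.86 and red points beside the orange ones, with CG13659 and CG15347 lower and CG31296 higher under joint exposure than under paraquat.

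Digestive tract genes varied between arrays within every group, and their levels were highest in joint replicates 1 and 2. The 9 measured genes, mainly trypsins and Jonah proteases, had a median change of 3.89. All 9 differed upward, and 2 of 9 (22.2%) lay wholly above the controls, beside 9.84% of all genes. Jon25Bi and Jon99Ci reached log2 4 only in joint replicates 1 and 2 and so passed the filter through those arrays. Their upward direction was thereby fixed in advance, and the count and median of the list are no evidence of a rise for them. Their summed level was log2 12.61, 8.48 and 13.17 in controls, 10.44 and 11.64 with paraquat, 13.64, 9.04 and 13.08 with nicotine, and 15.79, 15.87 and 13.31 in joint replicates 1 to 3. Joint replicates 1 and 2 were above every other array in the sum, and joint replicate 3 was close to the highest controls. Jon99Ci, a Jonah protease gene, read 2.41, 2.11 and 3.20 in controls and 11.08, 10.58 and 2.41 in joint replicates 1 to 3. Its difference of 5.45 ± 1.84 did not pass the test (adjusted p = 0.21). The proteases are near copies, so that probes may not separate them.

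Some other large uncalled differences were also lowest in joint replicate 3 among the joint arrays. The maltase gene Mal-A1 read 9.22, 8.39 and 8.47 in controls and 15.05, 12.72 and 10.98 in joint replicates 1 to 3, 4.22 ± 0.94 higher (adjusted p = 0.0925). The metallothionein gene MtnC, which encodes a metal-binding protein, read 3.67, 4.50 and 2.50 and then 9.76, 8.48 and 6.36, a difference of 4.64 ± 0.91 (adjusted p = 0.0684). Both were highest in joint replicate 1 and lowest in joint replicate 3, and neither stood out with paraquat, where Mal-A1 read 9.31 and 8.89 and MtnC 2.39 and 3.64. The 32 probe sets called for nicotine added to paraquat without joint replicate 3 included Jon99Ci, Jon25Bi, mex1, Mal-A6, MtnC and the peptidoglycan-degrading PGRP-SC2, which were singled out after their values were seen. Of these, Jon99Ci, Jon25Bi and mex1 reached log2 4 only in joint replicates 1 and 2, and so were tested only because those arrays were high.

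Several called genes were not lowest in joint replicate 3. On the paraquat arrays the summed digestive level, 10.44 and 11.64, lay within the control range, and Cyp6d2 was 4.82 above the controls there. In joint replicate 3, which had the lowest digestive level of the joint arrays, Cyp6d2, Ku80 and CG16898 had their highest joint values. Other called rises were ordered differently. CG12766 and mal were highest in joint replicate 1, at 13.27 and 9.75. A called probe set that names no gene, with a rise of 2.57, was lowest in joint replicate 3, at 11.8. These genes are examples from the 27 called rises, and the part of digestive transcripts in those rises was not tested. Ovary transcripts were present on single arrays, with osk at 7.65 in joint replicate 1 and 7.98 in nicotine replicate 1 and between 2.64 and 3.54 elsewhere. Vm26Aa was above log2 4 only in nicotine replicate 1, at 8.60, and Cp36 stayed below log2 4 on all arrays.

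**Figure D4:**
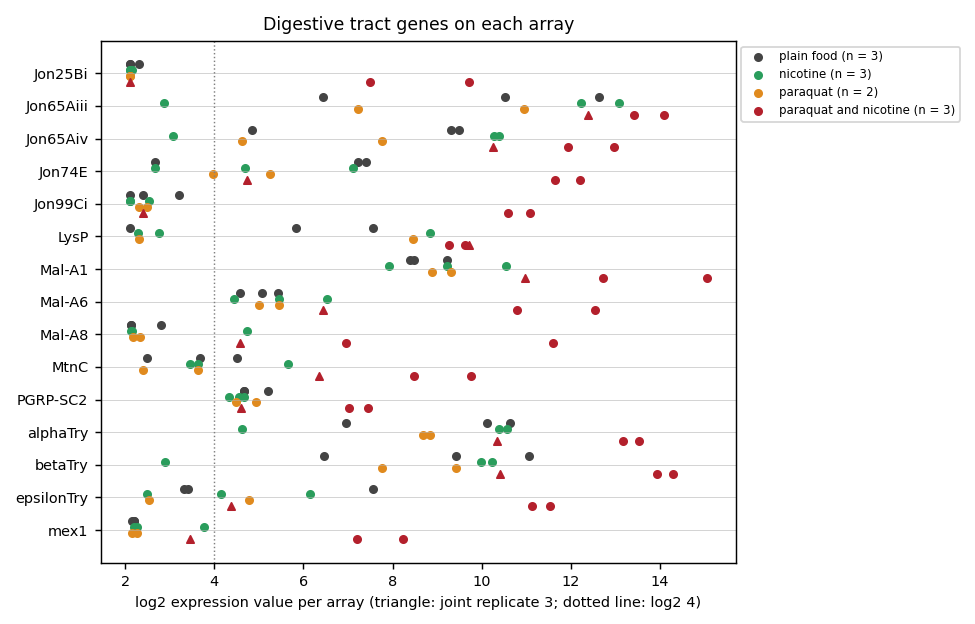
The deposited log2 values of 15 genes expressed in or described with the digestive tract are shown for every array, in the colours of the exposures, with joint replicate 3 drawn as a triangle and a dotted line at log2 4. Joint replicates 1 and 2 lie to the right in most rows, for example at 11.08 and 10.58 for Jon99Ci, while joint replicate 3 lies among the other arrays in most rows.

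Genes of the piRNA pathway and germline differed upward in 6 of 7 measured members, with a median of 1.53. The Piwi-family gene aub read 6.88, 3.16 and 2.43 in controls, 8.67 and 9.64 with paraquat, and 8.96, 8.92 and 10.34 under joint exposure, a difference of 5.25 ± 1.07 (adjusted p = 0.0716). All joint arrays exceeded all controls, although control replicate 1 lay far above the other controls. The helicase gene spn-E read 2.13, 2.13 and 2.15 in controls and 4.85, 2.29 and 6.38 under joint exposure, at least 2.11-fold higher and not past the test (adjusted p = 0.213). Of the 7 genes, 4 (57.1%) lay wholly above the controls, beside 9.84% of all genes, and the median of the list was 0.92 without joint replicate 1. The ovary gene osk is 1 of the 7 and was high in that array. It reached log2 4 only there and in nicotine replicate 1, and so passed the filter through those arrays. The controls of spn-E lay near the table's minimum, so it could differ only upward. For these genes the upward direction is no evidence of a rise.

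Among 15 metal-handling genes, 11 differed upward with a median of 0.38, none was called and 6 (40.0%) lay wholly above the controls, beside 9.84% of all genes. With 0.33% of all probe sets called, no call in a list this short is no result about it. MtnD, another metallothionein gene, went from 8.88, 8.10 and 6.95 to 12.04, 9.74 and 12.06, a difference of 3.30 ± 0.66 (adjusted p = 0.069). With paraquat MtnD read 10.38 and 10.72, above all controls, unlike MtnC. The iron regulatory protein gene Irp-1B differed by 1.20 ± 0.28 (adjusted p = 0.111) and the ferritin heavy chain gene Fer1HCH, among the brightest probe sets, by 0.44 ± 0.13 (0.191).

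Differences of the antioxidant and chaperone genes were mostly small. Of 17 antioxidant and glutathione genes, 1 (5.88%) lay wholly above the controls, beside 9.84% of all genes, and the median was 0.16. Catalase (Cat) read 12.39, 12.57 and 12.85 in controls and 12.46, 12.74 and 12.84 under joint exposure, with a difference of 0.07 ± 0.18 (adjusted p = 0.876). The mitochondrial superoxide dismutase Sod2 differed by -0.36 ± 0.24 (adjusted p = 0.481), and the glutathione-making Gclc by 0.51 ± 0.28 (0.378). For both Cat and Sod2 the groups overlapped. Heat shock proteins, 13 genes, had a median of 0.01 with no gene wholly on one side, and the inducible Hsp68, Hsp26 and Hsp27 had standard errors of 1.01, 0.69 and 1.04, too wide to show a 2-fold change. Proteasome subunits, which degrade damaged proteins, differed upward in 21 of 27 with a median of 0.17, and 5 (18.5%) lay wholly above the controls, beside 9.84% of all genes. Prosalpha6 differed by 0.69 ± 0.20 (adjusted p = 0.174) and Rpn2 by 0.48 ± 0.15 (0.196), while the median of the list was 0.34 with the RNA wear covariate and 0.54 for paraquat without nicotine.

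Immune genes differed in both directions. Of 21 recognition and signalling genes, 9 (42.9%) lay wholly above the controls and 3 (14.3%) wholly below, with a median of 0.21. The shares over all genes were 9.84% and 10.5%, so that on the lower side was near the background. PGRP-LB, an enzyme that degrades bacterial peptidoglycan, differed by 1.03 ± 0.21 (adjusted p = 0.0732), and the NF-kappaB factor gene Rel read 11.10, 11.53 and 11.07 and then 11.83, 11.80 and 11.81, a difference of 0.58 ± 0.19 (0.201). Rel read 11.80, 11.44 and 11.98 with nicotine. PGRP-SB1 differed by -2.02 ± 0.59 (adjusted p = 0.182). Antimicrobial peptide genes were split, with Def at 2.50 ± 0.55 (adjusted p = 0.0925) and Drsl4 at -4.31 ± 1.12 (0.141). AttD read 8.82, 2.48 and 8.07 in joint replicates 1 to 3 and between 2.15 and 2.50 in controls, so joint replicate 2 lay among the controls. The secreted stress peptide gene TotC read 14.51, 14.11 and 14.61 in controls and 10.43, 13.05 and 11.72 under joint exposure, a difference of -2.68 ± 0.53 (adjusted p = 0.0684).

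Joint replicate 2 lay nearest to the controls for a set of genes on the lower side. Lsp2, a storage protein of the head fat body, read 15.04, 15.32 and 15.36 in controls, 13.87 and 13.70 with paraquat, and 13.07, 15.13 and 13.16 in joint replicates 1 to 3. The yolk protein gene Yp3 read 15.42, 15.67 and 15.83, then 13.64, 15.53 and 14.46. In both genes joint replicate 2 fell inside the control range and the other joint arrays below it. The differences were -1.45 ± 0.47 for Lsp2 (adjusted p = 0.201) and -1.10 ± 0.38 for Yp3 (0.219). Of the 9 measured head fat body and yolk protein genes, 7 differed downward with a median of -0.28. Only 1 (11.1%) lay wholly below the controls, near the 10.5% of all genes. Yp1, LpR2 and Apoltp differed by -0.05, 0.04 and 0.11. The odorant-binding protein gene Obp99a read 9.89, 13.59 and 10.74 in joint replicates 1 to 3 against 13.34 to 14.53 in controls. Without joint replicate 2 limma called 204 probe sets higher and 177 lower, while the full set gave 27 and 3.

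Metabolic lists had medians below 0, and some of them came close to 0 in other fits. Of 21 genes in the list of amino acid and polyamine enzymes, 16 differed downward with a median of -0.40. In 7 (33.3%) the joint arrays lay wholly below the controls, where 10.5% of all genes did. The list also took in ct, a transcription factor gene and no such enzyme, which differed by 0.29 with overlapping groups. The median of this list was -0.23 with the RNA wear covariate and -0.27 without control replicate 3 and joint replicate 1 together. Odc1, ornithine decarboxylase, read 11.26, 11.72 and 12.50 and then 8.81, 10.74 and 9.53, a difference of -2.14 ± 0.50 (adjusted p = 0.111). The tyrosine-degrading Hpd differed by -1.18 ± 0.26 (adjusted p = 0.0925) and Faa of the same route by -1.02 ± 0.27 (0.145). The 17 fat synthesis and breakdown genes had a median of -0.28, which was -0.05 with the covariate and -0.13 without those arrays. Among them the perilipin gene Lsd-1 differed by -2.78 ± 0.75 (adjusted p = 0.157) and Pisd by -2.40 ± 0.56 (0.104). The acyltransferase gene Dgat2 went upward, from 4.14, 3.37 and 2.11 to 6.05, 5.10 and 7.34 (2.95 ± 0.63, adjusted p = 0.0867), and it read 7.37 and 7.97 with paraquat. The sugar-responsive factor gene sug differed by -1.95 ± 0.41 (adjusted p = 0.0763). Oxidative phosphorylation genes differed downward in 44 of 55 with a median of -0.21, which was -0.04 with the covariate and 0.03 without those arrays. Only 2 of the 55 (3.64%) lay wholly below the controls and 4 (7.27%) wholly above, beside 10.5% and 9.84% of all genes. The 34 genes of the cytosolic ribosome list had a median of -0.23, which was -0.07 with the covariate and -0.06 without those arrays. The list was filled by symbol and also holds RpL24-like, RpL7-like and RpS28-like, the last with group means below log2 4.

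Genes of neurons also lay lower. Neuropeptide genes differed downward in 25 of 27, with a median of -0.45, and 12 (44.4%) lay wholly below the controls, beside 10.5% of all genes. The median was -0.27 with the RNA wear covariate and -0.38 without control replicate 3 and joint replicate 1. The eclosion hormone gene Eh read 10.54, 10.77 and 10.41 in controls and 9.74, 9.92 and 9.42 under joint exposure, a difference of -0.88 ± 0.18 (adjusted p = 0.0716), with no overlap. Leucokinin (Lk) differed by -1.01 ± 0.28 (adjusted p = 0.159), and the insulin-like peptide genes Ilp5 and Ilp2 by -0.84 ± 0.31 (0.232) and -0.69 ± 0.29 (0.283). Of 15 neuronal genes 13 differed downward with a median of -0.41, and 4 (26.7%) lay wholly below the controls. Of 19 phototransduction genes 18 differed downward, and 9 (47.4%) lay wholly below, beside the same 10.5% of all genes. Their median was -0.27, or -0.41 without control replicate 3 and joint replicate 1. The list also took in retinin, a gene of the corneal lens and not of phototransduction. It differed by -1.10 ± 0.33 and is 1 of the 9 wholly below. For paraquat without nicotine the medians were -0.43 for neuropeptide, -0.40 for neuronal and -0.16 for phototransduction genes. On nicotine replicate 3 the neuronal list median lay at -0.54 relative to the control mean, beside -0.13, -0.28 and -0.5 in joint replicates 1 to 3. In the eye, the diacylglycerol kinase gene rdgA differed by -1.46 ± 0.35 (adjusted p = 0.117) and ninaG by -1.18 ± 0.27 (0.103), while trp and Arr2 differed by -0.21 ± 0.26 (0.719) and -0.07 ± 0.14 (0.836).

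Differences were small for the genes of dopamine synthesis and wider for some receptor genes. Tyrosine hydroxylase (ple), which makes the dopamine precursor, read 9.15, 8.76 and 8.47 in controls and 8.95, 8.78 and 8.74 under joint exposure, a difference of 0.03 ± 0.21 (adjusted p = 0.96). Its sign turned in some alternative fits. Dopa decarboxylase (Ddc) differed by -0.19 ± 0.20 (adjusted p = 0.675), with overlapping groups in both genes. The mitochondrial kinase gene Pink1, whose human counterpart is linked to Parkinson's disease, read 10.94, 10.94 and 11.64 and then 10.37, 10.94 and 10.58, a difference of -0.54 ± 0.23 (adjusted p = 0.281). Of 15 monoamine genes 5 (33.3%) lay wholly below the controls, beside 10.5% of all genes, with a median of -0.19 (-0.28 with the RNA wear covariate), among them the receptor genes DopEcR (-0.78 ± 0.31, adjusted p = 0.254) and Octbeta1R (-0.77 ± 0.31, 0.261). Of 7 measured nicotinic receptor subunit genes 1 (14.3%, near the share of all genes) lay wholly below the controls, nAChRalpha7 with 8.29, 8.23 and 8.18 in controls and 7.12, 7.80 and 6.79 under joint exposure (-1.0 ± 0.44, adjusted p = 0.296). It also read 8.44, 7.74 and 6.63 with nicotine, so the nicotine arrays spanned from above the controls to below the joint arrays.

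**Figure D5:**
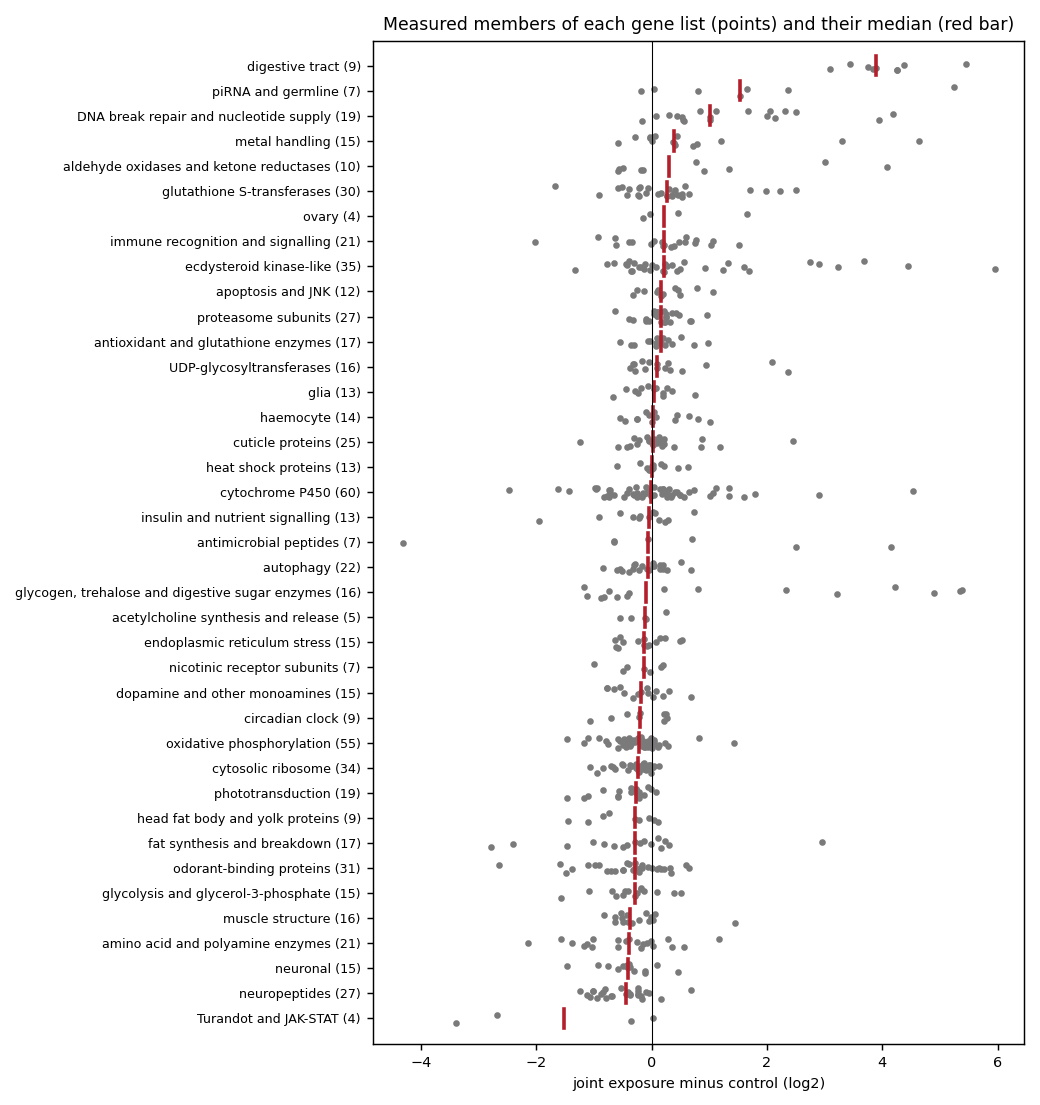
Grey points are the measured members of each of the 39 gene lists, placed by joint exposure minus control in log2, and red bars are list medians, with the number of measured members in parentheses. Digestive tract, piRNA and germline, and DNA break repair lists have the highest medians at 3.89, 1.53 and 1.02, most medians lie within 0.5 of 0, and the 4 measured of 18 Turandot and JAK-STAT genes have the lowest at -1.51. Those 4 are split, with Diedel at -3.39 and TotC at -2.68 but Stat92E at -0.35 and dome at 0.03, so that median lies near none of them.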

How the data were processed

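The deposited table holds log2 expression values per probe set, made by the authors with GCRMA per the submitters' processing notes, which corrects for nonspecific binding, puts all arrays on a shared distribution and combines the probes of a set. Its version is not given in the sources used here. Total RNA of pooled heads was amplified from the 3′ end and labelled with biotin, per the labels' protocols. Another paraquat pool with degraded RNA had been dropped by the submitters ahead of normalization and was not analysed here. The table held 18952 probe sets, 39.9% of values lay within 0.01 of its minimum of 2.11, and 0 pairs of arrays were identical. Arrays had 8729 to 9001 probe sets above log2 4, and their number limits the precision.

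No value was rescaled. After the filter, 7800 probe sets named 1 gene, 228 several and 1076 none, and 7776 symbols were updated through the RefSeq gene table of Drosophila Release 6. The sources name no genome build, so no coordinates are given. A limma 3.58.1 model (R 4.3.3; lmFit, eBayes, default prior) with 1 mean per group used all 11 arrays, with 7 residual and 2.48 prior degrees of freedom. Tests were two-sided, with Benjamini-Hochberg adjustment over 9104 probe sets within a contrast. Errors after ± are standard errors of the fit, and joint and control means rest on n = 3 arrays each. The script was tested on simulated data.

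Lists used the brightest probe set of each of 7316 genes. They were described by counts and medians, with no test, and 15 list entries matched no gene. The comparison, the members and the lists were chosen with earlier results of these data known. The naming rule took the 12 largest called rises and falls (3 falls exist) with no overlap, up to 4 members per list with the smallest p, the 6 called with the smallest p for nicotine added to paraquat, the 5 smallest interaction p-values, and subject genes. List members were narrowed after seeing the data to an unadjusted p below 0.05, and further called genes and list members are named beyond the rule. Sod1, Hsp22, Hsp70Aa and park were not analysed here. Where a group lay below log2 4 on all arrays, values were set to log2 4 and the fold written as "at least".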

Additional observations from a re-analysis of the deposited data

How the results depend on the processing

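The 30 probe sets kept their sign under every alternative that tested them, while the number of calls moved. It was 1 with no filter on low values, 47 with a filter at log2 6, 72 with a variance trend and robust prior, 3 with only the 6 arrays compared, 48 with arrays centred on their median, 278 with array weights and 3 with the RNA wear covariate. Array weights and the variance trend kept all 30 among their calls. Leaving out each array in turn gave 5 to 381 calls for joint exposure, 0 to 32 for nicotine added to paraquat and 0 to 21 for the interaction. With no filter, nicotine added to paraquat gave 4 calls and the interaction 3, all lower. Leaving out control replicate 3 and joint replicate 1 together, chosen after seeing the data, gave 3, 1 and 0 calls. Same-numbered joint and control arrays had correlations of 0.443, -0.067 and 0.177 in their deviations from the group means. Differently numbered ones ran from -0.381 to 0.312. Same-numbered control and paraquat arrays had 0.384 and 0.497, control and nicotine arrays 0.042, 0.27 and 0.109, and paraquat and joint arrays 0.052 and 0.425. The main fit did not take the numbers as pairs, and whether same-numbered arrays share an origin was not tested. With the replicate block, 18 probe sets were called for joint exposure, 17 of them among the 30, and 0 for nicotine added to paraquat and for the interaction. The median of ecdysteroid kinase-like genes changed sign with the covariate (-0.01), that of circadian clock genes too (0.05), and that of antimicrobial peptide genes without control replicate 1 (0.67). Among genes that were not called, small changes turned sign. When each array was left out in turn, the joint change ran from -0.01 to 0.21 for tkv, -0.05 to 0.41 for Obp56f, -0.13 to 0.21 for ple and -0.03 to 0.19 for Cat. For ple it was -0.11 with the covariate, -0.03 with array weights and -0.19 without control replicate 3 and joint replicate 1 together, where Sod2 was at 0.04. The causes of these changes were not tested. Signal near the background limits low genes: 39.9% of values lay within 0.01 of the table's minimum, and differences of genes below log2 4 in a group are bounds.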
